A study of Mus musculus with 11 samples.

Results

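The 52 genes described here encode parts of the centrosome and its centrioles, and they were read in gingival epithelium of mice given diphtheria toxin (DT) or PBS. They were taken by name, by a rule set with earlier results of these data known. The rule holds genes whose symbol starts with Cep and a digit, with Cntrob, Pcnt, Cdk5rap2, Plk4, Sass6, Stil, Odf2, Nin, Ninl, Cntln, Pcm1 and Espl1. This rule took 53 entries of the deposited table, of which Cep112os1 has no value, and the other 52 are among 19170 genes with values. Of the 52, 50 are protein coding, and the others are Cep112it, an RNA from within an intron of Cep112, and Cep83os, a noncoding RNA. The mean normalized count was 10 or more for all 52, so that a filter on low values removed none.

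All 11 mice were male Langerin-DTR mice, which carry the DT receptor under the langerin promoter, which makes langerin-expressing cells, the Langerhans cells (LCs) of the epithelium among them, sensitive to the toxin. PBS was injected into 5 mice and DT into 6 mice, 3 times each, at postnatal days 17, 24 and 31. Gingival epithelium was taken at 8 weeks of age. The comparison therefore asks what differed in adult epithelium after LCs had been removed early in life, and since LCs can repopulate an epithelium, the DT mice need not have lacked them when sampled. DT-treated mice without the transgene were not analysed here, so an effect of the toxin itself cannot be told apart from that of LC loss.

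The centrosome is built around a pair of centrioles, barrels of microtubules, and the pericentriolar matrix around them anchors the microtubules of the cell. Before division each centriole templates a new one: the kinase Plk4 recruits Stil and Sass6 to form the cartwheel, the new barrel is elongated, and the pair moves apart to the spindle poles. In a resting cell the older centriole can dock at the membrane through its appendages and give rise to a primary cilium. In a stratified epithelium, division takes place mainly in the basal layer, so whole tissue holds both dividing and differentiated cells.

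The recovered depth was 17509328 to 24325513 reads per mouse. Values are normalized counts, that is, reads divided by a size factor for each library. Over the 500 most variable genes the first principal component held 36.0% of the variance and set PBS 3 (-17.2) and PBS 5 (-20.9) apart from the other PBS mice (11.9 to 12.95), with the DT mice between -10.5 and 9.09. The summed level of 11 keratinocyte markers was 2200541 to 2412120 normalized counts in PBS and 2219412 to 2458886 in DT mice, the highest of the tissue lists. The 7 LC markers were Cd207, Cd74, H2-Ab1, H2-Aa, H2-Eb1, Itgax and Mfge8. All had a negative log2 fold change, none past the threshold. At an unadjusted p under 0.05 in limma 2 were lower (28.6%, against 6.19% of all genes). The summed level of these markers was 2332 to 5544 in PBS and 1703 to 3264 in DT mice. Cd207, which encodes langerin, was a small part of this sum, with means of 23.9 and 18.4 normalized counts. The summed level of 13 immediate early genes, a class that responds rapidly to many stimuli, tissue handling included, was 27175 to 67921 in PBS and 71866 to 114509 in DT mice, without overlap, and 10 of them were past the threshold. In bulk tissue fewer cells of a type and less RNA per cell cannot be told apart, and the part of these differences in the values below was not tested.

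Between DT and PBS, 1 of the 52 genes passed an adjusted p of 0.1, Cntrob, which was lower after DT (limma on log2(normalized count + 1), Benjamini-Hochberg over all genes). Of all 19170 genes, 0.558% passed in either direction, 0.245% as lower and 0.313% as higher. At an unadjusted p under 0.05, 9 members were lower and 2 were higher, which is 17.3% and 3.85% of them, against 6.19% and 5.31% of all genes. A negative log2 fold change was found for 39 of the 52 (75%), against 52.7% of all genes, and the median was -0.073 against -0.011. Log2 fold changes lay -0.38 and 0.24.

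Centrosome genes are long, with a median longest transcript of 4810 bases. Among the 3242 genes of at least this length and a mean of 10 or more, members included, 12.99% were lower and 3.98% higher at an unadjusted p under 0.05. Of these long genes 62.6% had a negative log2 fold change, with a median of -0.038. Long genes as a class thus also leaned lower, and the part of length in the members' values was not tested. After removal of the trend with length and GC content in each mouse, the median of the members was -0.039, against 0.011 for all genes. At an unadjusted p under 0.05 in limma, 6 members were then lower, as against 9 before, and 2 higher. The share of all genes at this p was not counted after the correction, so these counts have no background beside them. The correction moved all genes as well: 42 were called lower and 157 higher at an adjusted p under 0.1, against 47 and 60 before. Against the log2 fold changes given below, Cdk5rap2, Nin, Cep164, Cep250, Espl1 and Cep192 shrank to -0.051, -0.094, -0.065, -0.15, -0.17 and -0.18. Cntrob, Stil and Cep72 shrank less, to -0.34, -0.30 and -0.31, and Cep20 rose to 0.26.

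**Figure D1:**
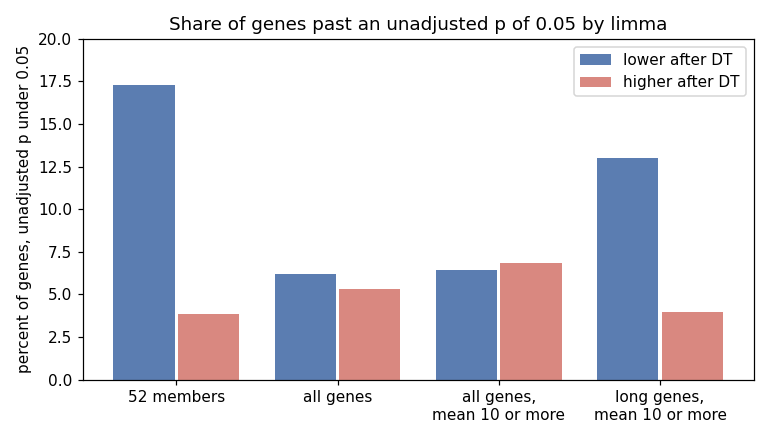
Percent of genes (y axis) that were lower (blue) or higher (red) after DT at an unadjusted p under 0.05 by limma, for the 52 centrosome genes, all 19170 genes, the 13477 genes whose mean was 10 or more and the 3242 long genes among them. The bars of the centrosome genes, 17.3% and 3.85%, lie nearer to those of long genes, 12.99% and 3.98%, than to those of all genes, 6.19% and 5.31%.

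**Figure D2:**
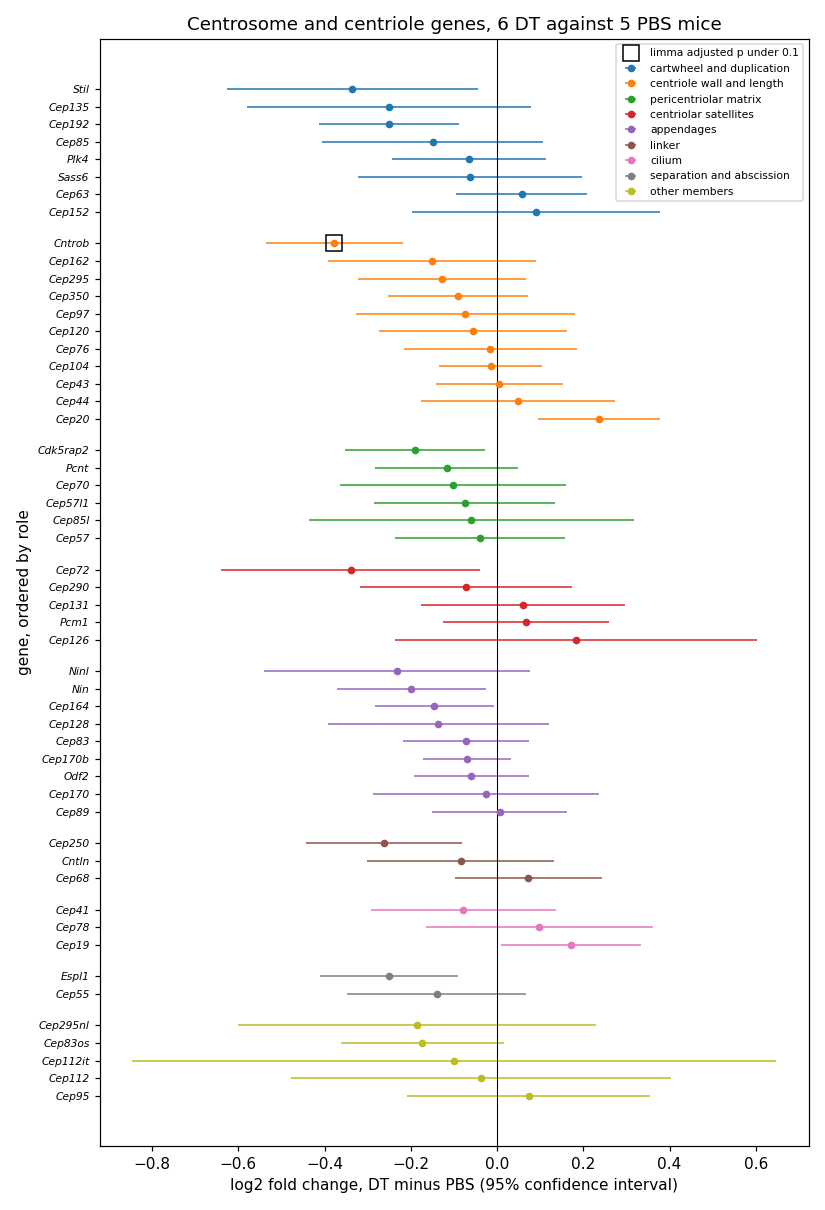
Log2 fold change of DT minus PBS (x axis) with its 95% confidence interval for each of the 52 genes, grouped and coloured by role. Most points lie left of 0, and the square marks Cntrob, the gene with an adjusted p under 0.1.

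Cntrob (ENSMUSG00000032782) encodes centrobin, a protein of the daughter centriole that is needed to build and elongate the new barrel. In PBS 1 to PBS 5, in this order, it had 230, 225, 214, 232 and 205 normalized counts, while the DT mice had 157 (lowest), 173 (median) and 184 (highest). Every DT mouse lay below every PBS mouse. The means were 221 ± 11.6 (SD, n = 5) and 170 ± 10.4 (SD, n = 6), a log2 fold change of -0.38 ± 0.075 (SE), or 1.30-fold lower, with an adjusted p of 0.0537 in limma. The adjusted p passed 0.1, to between 0.122 and 0.140, when PBS 1, PBS 2, DT 4, DT 5 or DT 6 was left out, and the log2 fold change then stayed between -0.38 and -0.35. Without PBS 3 and PBS 5 the log2 fold change was -0.43, with an adjusted p of 0.0116 in limma. These mice lay apart on the principal component, and leaving them out was an alternative chosen after seeing the data. They also had the lowest PBS values of Cntrob, so leaving them out widened the difference. With a replicate block by title or by library number, the adjusted p in limma was 0.299 or 0.393. Whether these numbers pair the mice is not known. In the annotation used here no other gene with values overlaps Cntrob.

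The groups did not overlap for 2 members, Cntrob and Cep72, both lower after DT, against 0.751% of all genes in that direction. No member was higher without overlap, against 0.902% of all genes. Without PBS 3 and PBS 5 the groups did not overlap for 10 members, 9 lower and 1 higher, against 12.4% of all genes in either direction.

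**Figure D3:**
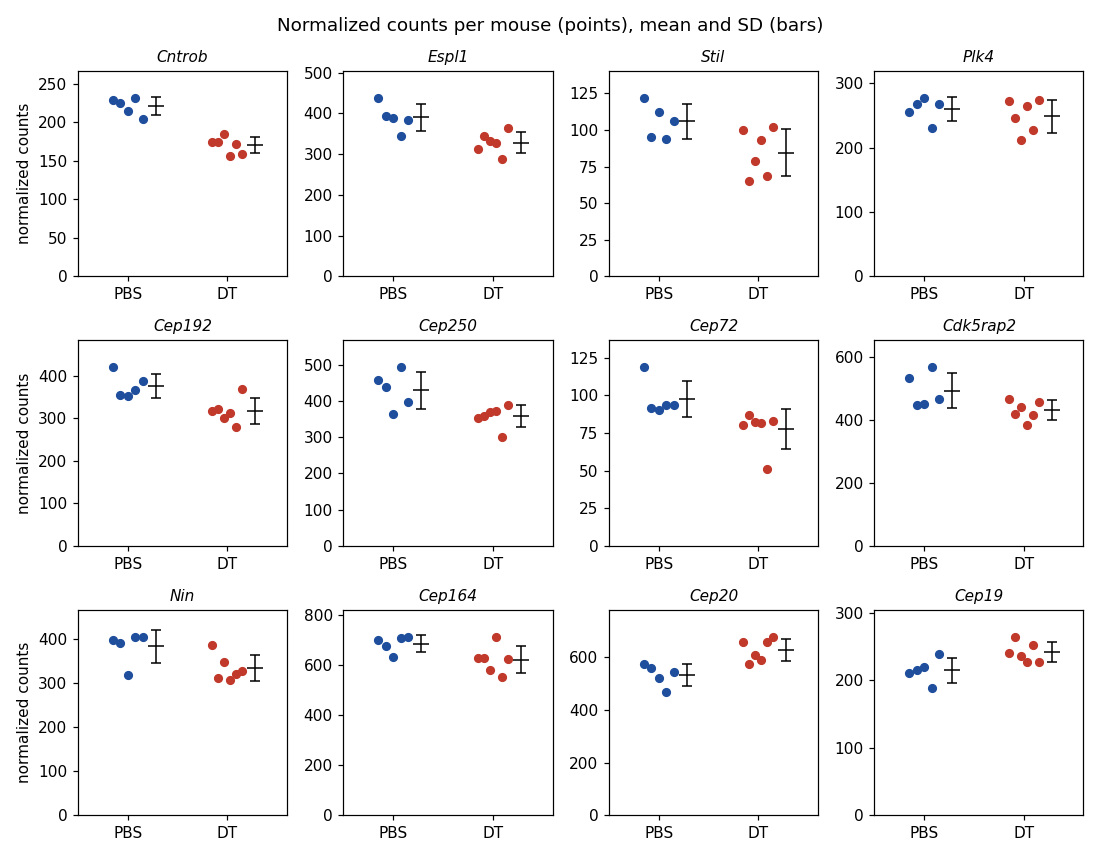
Normalized counts (y axis, from 0) of 12 genes in each of 5 PBS (blue) and 6 DT (red) mice, with the mean and SD of each group as bars. The groups are separate for Cntrob and Cep72, and overlap for the other 10 genes.

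The 8 genes of the cartwheel and of duplication had a median log2 fold change of -0.11, and 6 were negative. None passed the threshold. Stil (ENSMUSG00000028718), the scaffold that Plk4 phosphorylates, had 122, 95.2, 113, 93.8 and 106 normalized counts in PBS mice, and 65.1, 86.0 and 102 (lowest, median, highest) in DT mice. The DT mice reached lower than any PBS mouse, but the upper DT values overlapped the PBS values. The log2 fold change was -0.34 ± 0.14 (SE), with an adjusted p of 0.360 in limma.

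Cep192, which brings Plk4 to the centriole and builds the matrix of the spindle pole, was at 421, 356, 353, 367 and 389 normalized counts in PBS mice, and at 281, 315 and 370 (lowest, median, highest) in DT mice. All but the highest DT mouse lay below all PBS mice. Its log2 fold change was -0.25 ± 0.076 (SE), with an adjusted p of 0.220 in limma. Cep135, a cartwheel protein, had the same estimate with a wider error, -0.25 ± 0.16 (SE). Its PBS values ran from 64.4 to 119 normalized counts and included all but the lowest 3 DT values.

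The kinase at the head of this pathway had a smaller estimate. Plk4 (ENSMUSG00000025758) was at 256, 268, 278, 230 and 268 normalized counts in PBS mice, and at 212, 255 and 274 (lowest, median, highest) in DT mice. The groups overlapped over most of their range. The log2 fold change was -0.065, with a 95% confidence interval of -0.24 to 0.11. The interval of Stil, -0.63 to -0.044, holds this estimate, and the difference between Plk4 and Stil was not tested. Sass6, which forms the spokes of the cartwheel, was at 112, 87.5, 95.6, 81.0 and 81.8 normalized counts in PBS mice and at 74.5, 85.5 and 109 (lowest, median, highest) in DT mice. Its log2 fold change was -0.063, and Sass6 shares its position with Trmt13 on the opposite strand. Cep152 and Cep63, the other partners of Plk4 at the base of the new barrel, had log2 fold changes of 0.090 and 0.058.

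The 2 members of separation and abscission were both lower on average. Espl1 encodes separase, the protease that opens cohesin rings at anaphase and frees the centrioles of a pair from each other. It was at 439, 395, 389, 345 and 385 normalized counts in PBS mice, and at 287, 330 and 363 (lowest, median, highest) in DT mice. Only PBS 4 lay among the DT values. The log2 fold change was -0.25 ± 0.075 (SE), with an adjusted p of 0.218 in limma. Cep55, which acts at the bridge between daughter cells, had a log2 fold change of -0.14 ± 0.098 (SE), with PBS values of 178 to 249 and DT values of 166 to 228 normalized counts.

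Genes that serve division often share promoter elements: the CHR, written TTTGAA, and the CCAAT box, bound by NF-Y, in genes that peak late in the cycle, and E2F sites, written here GCGGGAA, in genes that rise before DNA replication. These letters were searched on both strands in 300 bases around the start site, 250 before and 50 after, in RefSeq windows on GRCm38.p6. There were 55 windows for 43 of the members, and windows of the same gene overlap in part. The CHR letters were in 18 windows (32.7%) against 13.4% of all 16389 windows, and the E2F letters in 14 (25.5%) against 7.40%. CCAAT was in 25 (45.5%) against 37.1% of all windows. A match is a run of letters and not a shown binding site. Cntrob, the member past the threshold, had no match: it either has no window or holds none of these letters in it.

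The 250 bases before the start site are printed for Plk4, Stil and Espl1, which act in duplication and separation, and for Cep20, the member with the largest positive value. Capitals mark matches on either strand, and positions are counted from the start site, with negative positions before it.
Plk4, chr3:40799701-40799950, + strand: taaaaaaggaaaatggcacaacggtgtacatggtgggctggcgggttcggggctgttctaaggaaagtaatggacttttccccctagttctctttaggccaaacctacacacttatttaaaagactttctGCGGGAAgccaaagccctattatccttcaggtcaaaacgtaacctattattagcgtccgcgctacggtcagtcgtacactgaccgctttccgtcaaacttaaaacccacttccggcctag
Stil, chr4:114999868-115000117, + strand: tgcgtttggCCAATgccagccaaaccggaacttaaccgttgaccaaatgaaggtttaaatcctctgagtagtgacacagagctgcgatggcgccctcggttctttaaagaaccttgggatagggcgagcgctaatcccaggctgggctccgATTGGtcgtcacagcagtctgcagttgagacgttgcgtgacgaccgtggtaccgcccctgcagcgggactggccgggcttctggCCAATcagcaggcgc
Espl1, chr15:102296043-102296292, + strand: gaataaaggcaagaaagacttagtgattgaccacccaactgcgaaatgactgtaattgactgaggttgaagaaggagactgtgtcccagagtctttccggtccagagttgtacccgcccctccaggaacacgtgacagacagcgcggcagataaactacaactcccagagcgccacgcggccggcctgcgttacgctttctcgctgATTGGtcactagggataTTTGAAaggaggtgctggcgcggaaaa
Cep20, chr16:14317333-14317582, - strand: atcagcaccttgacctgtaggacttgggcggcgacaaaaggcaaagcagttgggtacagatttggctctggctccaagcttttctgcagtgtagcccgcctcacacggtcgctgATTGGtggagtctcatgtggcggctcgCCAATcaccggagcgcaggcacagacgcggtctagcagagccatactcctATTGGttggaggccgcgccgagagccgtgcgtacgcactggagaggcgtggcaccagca
In Plk4 the capitals are the E2F letters at -120. In Stil they are CCAAT at -241 and -15 and its reverse complement at -99, and a reverse E2F match lay at 43, past the end of the printed stretch. In Espl1 they are a reverse CCAAT box at -44 followed by the CHR at -27. In Cep20 all 3 matches are CCAAT boxes, at -136, -109 and -59, and neither the CHR nor the E2F letters were found in its window. Stil and Plk4 both carry the E2F letters, past the start site in Stil and before it in Plk4. Whether any match is related to the log2 fold changes was not tested.

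Besides Cntrob, 10 members belong to the centriole wall and the control of its length, and their log2 fold changes ran from -0.15 to 0.24. Cep20 (ENSMUSG00000022677), a small protein of satellites and centrioles that is needed for cilia, was the member furthest in the other direction. It was at 575, 560, 520, 466 and 542 normalized counts in PBS mice, and at 573, 633 and 678 (lowest, median, highest) in DT mice. PBS 1 lay just above the lowest DT mouse, and the other PBS mice lay below all DT mice. This was a log2 fold change of 0.24 ± 0.067 (SE), with an adjusted p of 0.196 in limma. After the length and GC correction the adjusted p was 0.098.

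All 6 genes of the pericentriolar matrix had negative log2 fold changes, from -0.19 to -0.04, and none passed the threshold. Cdk5rap2, which ties the gamma-tubulin ring to the matrix, was at 533, 446, 452, 567 and 466 normalized counts in PBS mice, and at 383, 430 and 468 (lowest, median, highest) in DT mice. PBS 1 and PBS 4 lay above all DT mice, and the other PBS mice lay within their upper range. It came to a log2 fold change of -0.19 ± 0.077 (SE), with an adjusted p of 0.344 in limma. Pcnt, the main scaffold of the matrix, was at 1100, 802, 854, 993 and 850 normalized counts in PBS mice and at 762, 843 and 909 (lowest, median, highest) in DT mice. Here too PBS 1 and PBS 4 were the mice above the DT range. Its log2 fold change of -0.12 became 0.0056 after the length and GC correction.

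Of 9 appendage genes 8 were negative, with a median of -0.072 and none past the threshold. Nin, a subdistal appendage protein that anchors microtubules, was at 397, 391, 317, 404 and 404 normalized counts in PBS mice and at 306, 324 and 386 (lowest, median, highest) in DT mice. All PBS mice but PBS 3 lay above the DT mice. DT minus PBS was -0.20 ± 0.081 (SE) on the log2 scale, with an adjusted p of 0.359 in limma. Cep164, a distal appendage protein needed to dock the centriole for a cilium, was at 699, 675, 630, 705 and 712 normalized counts in PBS mice and at 552, 624 and 711 (lowest, median, highest) in DT mice. DT 4 lay among the highest PBS mice, and the others lay below all of them. On the log2 scale the difference was -0.15 ± 0.065 (SE), with an adjusted p of 0.400 in limma, and Cep164 overlaps 2610028D06Rik on the same strand.

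The other named appendage genes had smaller estimates or wider errors. Ninl, a relative of Nin that overlaps Nanp, had a log2 fold change of -0.23 ± 0.15 (SE), with 65.4 to 94.3 normalized counts in PBS and 50.0 to 81.6 in DT mice. Odf2, without which appendages do not form, had -0.060 ± 0.063 (SE), with 1152 to 1439 in PBS and 1172 to 1363 in DT mice. Cep170b, a relative of the subdistal appendage protein Cep170, had the highest level per length among the members, 1427 normalized counts per kilobase of transcript, against 300.5 for Odf2, the next. Its log2 fold change was -0.069, and 0.031 after the length and GC correction.

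The linker holds the centrioles of a cell together until division. Cep250, a protein of this linker, was at 457, 439, 363, 494 and 397 normalized counts in PBS mice, and at 301, 364 and 389 (lowest, median, highest) in DT mice. All PBS mice but PBS 3 lay above all DT mice. This was a log2 fold change of -0.26 ± 0.085 (SE), with an adjusted p of 0.250 in limma, and Cep250 overlaps 6430550D23Rik on the opposite strand. Cntln, which links Cep250 with Cep68, had -0.084 ± 0.10 (SE), with 145 to 199 normalized counts in PBS and 155 to 198 in DT mice. Cep68, also of the linker, had 0.072.

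Satellites, the granules that carry proteins to the centrosome, had no common sign: 2 of 5 members were negative. Cep72, a satellite protein that helps to place gamma-tubulin rings at the centrosome, was at 119, 91.3, 90.5, 93.8 and 93.4 normalized counts in PBS mice and at 51.0, 82.1 and 87.0 (lowest, median, highest) in DT mice. The groups did not overlap, but PBS 1 lay far above its group and DT 5 far below. It came to a log2 fold change of -0.34 ± 0.14 (SE), with an adjusted p of 0.363 in limma. Pcm1, the scaffold of the granules, was at 1952, 1664, 1405, 2105 and 1526 normalized counts in PBS mice and at 1664, 1782 and 1952 (lowest, median, highest) in DT mice. The DT mice lay within the PBS range. Its log2 fold change of 0.067 became -0.0040 without PBS 3 and -0.083 without PBS 3 and PBS 5.

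Of 3 cilium genes, Cep19, which starts the entry of transport proteins into the cilium, was at 210, 215, 219, 189 and 239 normalized counts in PBS mice and at 228, 238 and 264 (lowest, median, highest) in DT mice. Only PBS 5 reached the DT range. DT minus PBS was 0.17 ± 0.077 (SE) on the log2 scale, with an adjusted p of 0.403 in limma. The others, Cep41 and Cep78, had -0.078 and 0.098.

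The noncoding Cep83os had a log2 fold change of -0.17 ± 0.089 (SE), with 115 to 143 normalized counts in PBS and 107 to 126 in DT mice. Cep112it had the lowest level per length, 3.04 normalized counts per kilobase, and a log2 fold change of -0.099 ± 0.35 (SE). It lay at 4.02 normalized counts in PBS 3 and at 12.6 to 22.6 in the other PBS mice, so its direction rested on few reads. Cep112, its host gene, was also lowest in PBS 3, at 24.1 normalized counts against 46.2 to 59.2 in the other PBS mice. In all, 13 members share a position with another gene with values, some of them on the opposite strand only. Counting could split or confuse the reads of such genes, on opposite strands only where it ignores strand.

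Members varied together between mice of the same group, as did long genes. The median over the members of the log2 value minus the mean of the gene was 0.18, 0.087 and 0.17 in PBS 1, PBS 2 and PBS 4, and -0.11 and -0.035 in PBS 3 and PBS 5. In the DT mice it lay between -0.087 (DT 5) and 0.071 (DT 1). PBS 3 thus lay below all DT mice, and the PBS group spanned a wider range than the DT group. The same median over the 3242 long genes was 0.077, 0.0023 and 0.12 in PBS 1, PBS 2 and PBS 4, -0.041 and -0.046 in PBS 3 and PBS 5, and -0.057 to 0.0049 in DT mice. The SD of the log2 values was larger in PBS than in DT mice for 37 of the 52 (71.2%), against 64.5% of all genes and 69.3% of those whose mean was 10 or more. Without PBS 3 and PBS 5, the mice that the principal component set apart (an alternative chosen after seeing the data), 8 members passed the threshold, against 10.3% of all genes, and 18 were lower at an unadjusted p under 0.05, against 11.4% of all genes. Of all genes 1967 then passed, as against 107 with all mice, so the count rose across all genes.

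**Figure D4:**
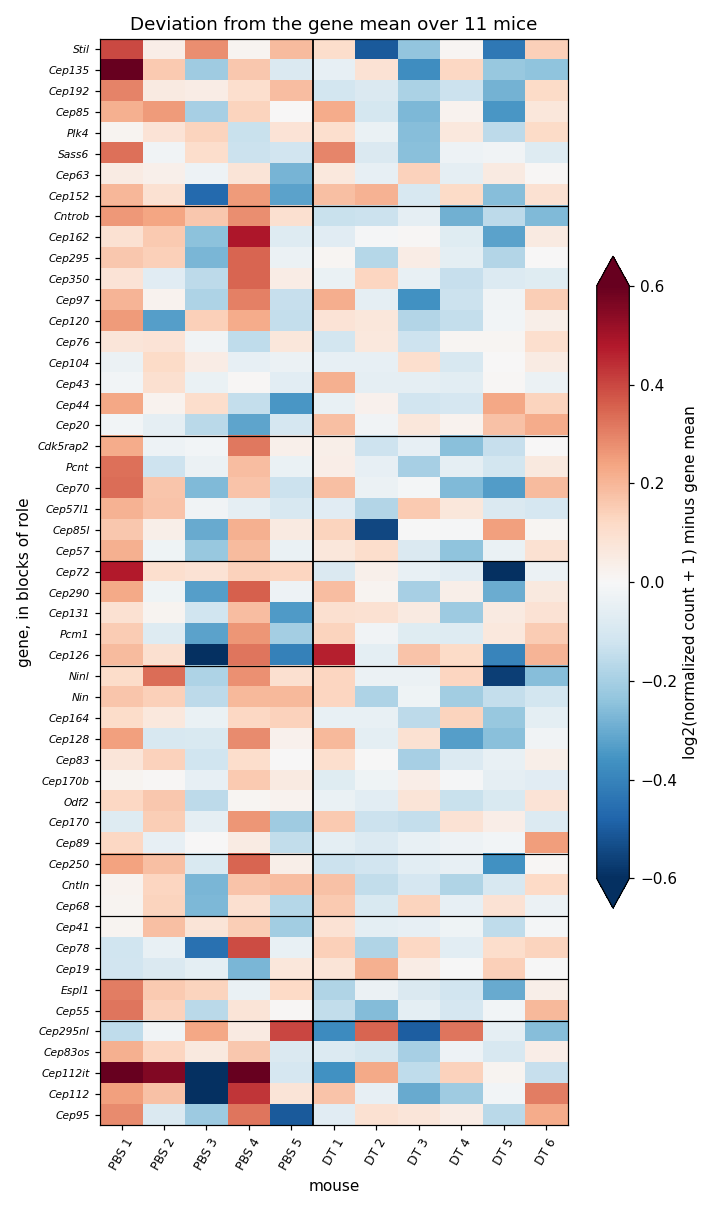
Log2(normalized count + 1) minus the mean of the gene over 11 mice (colour, from -0.6 in blue to 0.6 in red) for the 52 genes (rows, in blocks of role) in 5 PBS and 6 DT mice (columns, parted by the vertical line). PBS 1 and PBS 4 are mainly red, with medians of 0.18 and 0.17, while PBS 3 is blue for many genes, with a median of -0.11.

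Markers of dividing cells were compared as a measure of proliferation that uses no member. The index, the mean over 14 markers of the centred log2 value, was 0.043 ± 0.13 (SD, n = 5) in PBS and -0.036 ± 0.12 (SD, n = 6) in DT mice, with a difference of -0.079 (two-sided exact permutation test, p = 0.333). Of the 14, 12 were negative and none passed the threshold. Mki67, the protein that coats chromosomes in mitosis, had a log2 fold change of -0.31 (adjusted p = 0.180 in limma), and Aurka, the kinase of the spindle pole, had 0.26 (adjusted p = 0.289).

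Across the 11 mice none of 52 correlations with this index passed an adjusted p of 0.05, by Pearson, Spearman or deviations from the group means. At an unadjusted p under 0.05 there were 3 positive and 0 negative by Pearson and by Spearman, and 4 positive and 2 negative over deviations from the group means. Plk4 had the highest, with r = 0.73 (permutation p = 0.0121, adjusted p = 0.369) and rho = 0.81 (p = 0.00407, adjusted p = 0.148). Stil followed with r = 0.71 (permutation p = 0.0142, adjusted p = 0.369) and rho = 0.79 (p = 0.00568, adjusted p = 0.148). Without the 2 mice farthest from the median index, DT 6 and PBS 5, r was 0.71 for Plk4 and 0.77 for Stil, and within groups it was 0.70 and 0.69. For Cntrob r was 0.069 (permutation p = 0.835, adjusted p = 0.952) and rho was -0.14 (p = 0.695, adjusted p = 0.910), and within groups r was -0.64 (permutation p = 0.0339, adjusted p = 0.308). All of these values share the scaling of a library.

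**Figure D5:**
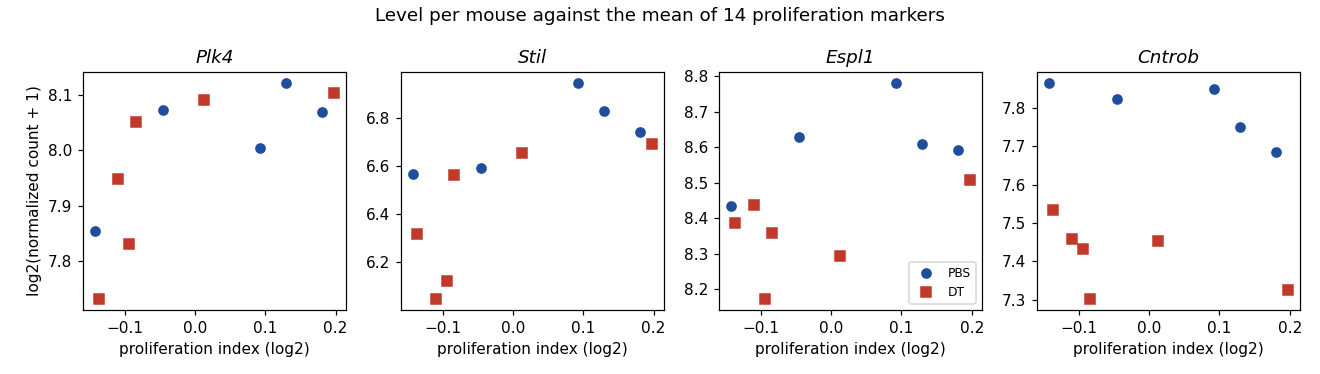
Log2(normalized count + 1) of Plk4, Stil, Espl1 and Cntrob (y axes, not from 0) against the proliferation index (x axis, log2) in 5 PBS mice (blue circles) and 6 DT mice (red squares). Plk4 and Stil are higher in mice with a higher index (r of 0.73 and 0.71), whereas for Cntrob the DT mice lie below the PBS mice at every index.

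Other genes of the same structures, which the rule did not take in, were read from lists written by hand. None of the 21 further duplication and wall genes, 23 of the gamma-tubulin ring and augmin, 9 satellite genes, 13 appendage and linker genes and 12 primary cilium genes passed the threshold. At an unadjusted p under 0.05 in limma the lists held 1, 4, 1, 1 and 1 lower genes, in this order. These were 4.76%, 17.4%, 11.1%, 7.69% and 8.33% of the lists, against 6.19% of all genes and 12.99% of the long genes. The only higher gene was Cetn3, 4.76% of the first list, against 5.31% of all genes. The medians of the lists, in the same order, were -0.050, -0.058, -0.067, -0.026 and 0.045 on the log2 scale. Mphosph9, which holds the cap of the mother centriole in place, had the largest difference of the first list, with a mean of 139 normalized counts in PBS and 103 in DT mice and a log2 fold change of -0.42 ± 0.12 (SE, adjusted p = 0.196 in limma). Cetn3, a centrin of the barrel's lumen, had 0.21 ± 0.061 (SE), with an adjusted p of 0.204 in limma. In the gamma-tubulin and augmin list Haus1, an augmin subunit, and Akap9, a scaffold of the matrix and the Golgi, had -0.24 and -0.23, with adjusted p of 0.264 and 0.288. Gamma-tubulin itself, Tubg1, had -0.039. Tex9 had -0.32 in the satellite list, Crocc, which forms the rootlet, -0.24 among linker genes, and Tctn1, of the gate of the cilium, -0.36. Genes of multiciliated cells were nearly absent, with 5 of 12 measured and a summed level of 8.02 to 22.0 normalized counts per mouse.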

How the data were processed

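Messenger RNA of gingival epithelium from 5 PBS and 6 DT mice was sequenced, and groups were taken from the sample titles. The authors aligned trimmed reads with TopHat, counted them per gene with HTSeq, left out genes with few reads and divided the counts by DESeq2 size factors, and these normalized counts are the deposited values, given as a score per gene and mouse. The submitters' processing notes name GRCm39, cutadapt 2.10, TopHat2 2.1.1, HTSeq 2.01 and DESeq2 1.36.0, whereas the methods of the study name an older mouse build. The library labelled PBS 5 carries the number 6 in its title, and its column was matched by its description. Of 55414 genes listed, 19170 have values.

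Depth was recovered from the step between low values, the worth of 1 read, of which 100% of the values in every library were whole multiples (tolerance 0.1). Log2(normalized count + 1) was fitted with limma 3.58.1 (intensity trend, R 4.3.3) on all 11 mice with no covariate. P-values were adjusted by Benjamini-Hochberg over 19170 genes, with a threshold of 0.1. They set the difference between the groups against the spread between these mice, moderated over all genes. The index was tested over all 462 splits of the mice (smallest p 0.00216) and correlations with 100000 permutations. Lengths and GC content came from GENCODE M21 on GRCm38 for 99.7% of genes, and their trends were removed with loess (span 0.3, degree 1). The procedure was tested on simulated data.

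The members and lists were chosen with earlier results of these data known. Named are the 12 genes spelled out in the rule, members past the threshold, the 10 others with the smallest p, those without overlap, those with the highest and lowest level per kilobase, and of each other list up to 2 genes with the smallest p. Tubg1, Cd207, Cep41, Cep78, Cep68, Cep63, Cep152 and Cep112 were added after their values were seen. Lists of cell types are given by their sums, those of keratinocytes, LCs and multiciliated cells above. Fibroblast markers summed to 1252 to 1450 normalized counts in PBS and 1109 to 1594 in DT mice. Endothelial, T cell, skeletal muscle and melanocyte markers reached at most 137, 55.3, 53.5 and 17.2 in any mouse. Alternatives were pseudocounts of 0.5 and 5, removal of genes with low values, TMM, quantile and median scaling, array weights, the length and GC correction, blocks on replicate numbers, and leaving out mice.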

Additional observations from a re-analysis of the deposited data

Results flagged for a closer look

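In 48 sets of values, those of the named members and the proliferation index in each group, a mouse was sought whose distance from its nearest neighbour was large for the range of its group (Dixon's ratio, which marks about 1 in 20 groups by chance), and 4 were found. Sass6 was at 108.9 normalized counts in DT 1, while the next DT mouse was at 87.3. Nin was at 316.8 in PBS 3, below the next PBS mouse at 390.7. Cep72 was at 118.8 in PBS 1, above the next at 93.8, and at 51.0 in DT 5, below the next at 80.2, so the distant mice of both groups lay on the outer sides of its difference.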

How the results depend on the processing

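Over all genes 107 passed the threshold (60 higher, 47 lower), 189 with array weights and 199 with the length and GC correction (157 higher, 42 lower). Leaving out each of the 11 mice in turn gave 27 (without DT 5) to 259 (without PBS 5) genes over all, 0 to 1 members, 4 (without PBS 1) to 11 members lower and 1 to 2 higher at an unadjusted p under 0.05, 2 to 4 members without overlap, and -0.40 to -0.35 for Cntrob. With the length and GC correction 2 members passed, Cntrob and Cep20. Whether the replicate numbers of the labels pair the mice is not known. Deviations of mice with the same title number correlated at 0.088, 0.17, -0.23, -0.21 and 0.32. These showed no common pairing, but without values for differently numbered mice beside them they cannot exclude one. With a replicate block by title number, without DT 6, 36 genes and 0 members passed, and Cntrob was at -0.36 (limma adjusted p = 0.299). With a block by library number, without DT 5, 0 genes and 0 members passed, 4 members were lower and 1 was higher at an unadjusted p under 0.05, and Cntrob was at -0.38 (limma adjusted p = 0.393). The correction with the block gave 29 genes, 0 members and -0.32 for Cntrob (limma adjusted p = 0.245). Without PBS 3 and PBS 5, chosen after seeing the data, 1967 genes and 8 members passed, 18 members were lower and 10 did not overlap, against 10.3%, 11.4% and 12.4% of all genes, with fewer and less spread mice. Quantile normalization left 1 member without overlap. Signs turned for members near 0: Pcnt at 0.0056 and Cep170b at 0.031 with the length and GC correction (0.040 for Cep170b with the block as well), Sass6 at 0.0077 and Cep112it at 0.0081 with quantile normalization. Leaving out a mouse moved Sass6 between -0.13 and 0.012, Pcm1 between -0.0040 and 0.14, and Cep112it between -0.50 and 0.062, and Pcm1 was at -0.083 without PBS 3 and PBS 5. The causes were not tested. Over all named members but Cntrob, these included, 489 values under alternatives kept direction and side of the threshold, 6 passed it newly and 11 turned sign. The median of the members stayed negative in each setting, from -0.15 to -0.039, as did the index difference, from -0.13 to -0.044. Count tests with edgeR or DESeq2 were planned and not run. The value of 1 read in PBS 3 and DT 3, 1.006 and 1.007, was too near 1 to pass a check on recovered reads. The depths and the TMM scaling still rest on the recovered reads. Genes with few reads, such as Cep112it, are limited by depth.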
